A study of Homo sapiens with 28 samples.

Results

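The genes described here encode the enzymes, electron carriers and accessory proteins of mitochondrial and peroxisomal fatty acid oxidation. They are 32 genes listed by name as members of the pathway, and each was matched by symbol to 1 identifier of the deposited count table. Of these, 31 were expressed highly enough to be tested, among 18849 tested genes of 63139 gene rows. The gene not tested was PDK4, an inhibitor of pyruvate dehydrogenase that spares glucose when fat is burned. It had 58 counts over all 28 libraries, at most 6 in a library, and 0 in 8 of them.

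Messenger RNA was sequenced from HepG2, an established human liver cancer line, in 7 groups of 4 libraries. Vehicle controls received water or DMSO. Cadmium chloride (CdCl2, 0.5 µM) was compared with water, and the other compounds with DMSO: TCDD (100 nM), PFOS (10 µM), BPA (75 µM) and TBTCl (0.1 µM). TCDD is a dioxin that binds the aryl hydrocarbon receptor, PFOS is a perfluorinated surfactant, BPA is the plastic monomer bisphenol A, and TBTCl is the organotin tributyltin chloride. All groups, the vehicles included, spent 24 h without serum before an exposure of 24 h, so every level below is that of serum-deprived cells of 1 tumour line. Per the labels there were 4 independent experiments, and p-values measure the spread between these libraries. The series text records that the labels of TCDD and PFOS were exchanged after deposition. CYP1A1, a classical target of the aryl hydrocarbon receptor, was at 2841 to 6410 CPM in the libraries labelled TCDD. It was at no more than 462 CPM in any other library. The highest of these others were the BPA libraries, at 293, 462, 159 and 53.5 CPM, against 2.82 to 16.9 CPM in DMSO.

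In beta oxidation an acyl-CoA loses its carbons in pairs through repeated rounds of dehydrogenation, hydration, a further dehydrogenation and thiolytic cleavage. Mitochondria take in long chains through the carnitine shuttle and pass the electrons of the first step through electron transfer flavoprotein to the respiratory chain, whereas peroxisomes shorten very long and branched chains and bile acid precursors and make hydrogen peroxide. In liver the product feeds ketone bodies, and many genes of the pathway are known targets of the nuclear receptor PPAR alpha and its coactivator PGC-1 alpha.

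Levels are given as CPM, the counts of a gene scaled to library size with TMM factors, as mean ± SD of 4 libraries. Changes are edgeR log2 fold changes ± SE, and a gene was called higher or lower at a Benjamini-Hochberg adjusted p under 0.05 over all 18849 genes. Library totals ran from 28.9 M to 66 M counts, at which 3 counts corresponded to 0.0435 to 0.104 CPM, counting error only. Summed hepatocyte markers (ALB, AFP, APOA1, APOB, TTR, SERPINA1, TF and FGB) ran from 26028 to 71915 CPM. Of 10 markers of leukocytes, endothelium, stroma and biliary cells, 5 were too low to test, PTPRC and COL1A2 had a median of 0, and KRT19, at 218 to 783 CPM, made up most of their summed 257 to 827 CPM.

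The promoters of the 2 enzymes with the largest rises under TCDD are shown first, with the promoters of a member that holds a dioxin response element core and of the most abundant member. A window of 250 bases before the RefSeq start (GRCh38.p14) was at hand for 22 of the 32 members, and the stretches printed leave out every base of an annotated exon. Capitals mark TNGCGTG, the core of the dioxin response element, in HADH, ETFB and ACADSB, and AGGTCA, the half-site of nuclear receptors such as PPAR alpha, in FABP1, each searched on both strands. The stretch of HADH lies at chr4:107989639-107989713 on the plus strand, and that of ETFB at chr19:51366419-51366638 on the minus strand. The stretch of ACADSB lies at chr10:123008818-123008978 on the plus strand, and that of FABP1 at chr2:88128117-88128312 on the minus strand.
HADH: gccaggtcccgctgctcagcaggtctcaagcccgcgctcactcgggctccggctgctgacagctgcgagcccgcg
ETFB: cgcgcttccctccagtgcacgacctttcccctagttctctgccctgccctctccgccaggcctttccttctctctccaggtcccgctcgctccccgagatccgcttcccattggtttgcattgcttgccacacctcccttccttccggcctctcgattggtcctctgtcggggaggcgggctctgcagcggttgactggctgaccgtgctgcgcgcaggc
ACADSB: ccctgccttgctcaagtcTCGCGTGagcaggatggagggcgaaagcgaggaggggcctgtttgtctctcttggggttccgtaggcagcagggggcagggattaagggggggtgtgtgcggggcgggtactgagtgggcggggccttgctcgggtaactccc
FABP1: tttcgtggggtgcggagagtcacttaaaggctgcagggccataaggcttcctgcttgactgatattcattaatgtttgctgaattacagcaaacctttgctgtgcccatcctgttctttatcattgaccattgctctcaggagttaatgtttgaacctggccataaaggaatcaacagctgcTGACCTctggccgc

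No TNGCGTG was found in the 250-base windows of HADH and ETFB, which says only that these letters are not in those windows. Over all 35116 promoter windows of the same length, 4.52% held it, and 2 of the 22 members with a window did, ACADM and ACADSB. AGGTCA was in 12.1% of all windows and in those of 2 members, FABP1, where it begins 68 bases before the start as TGACCT on the strand printed, and ACAD10. TGACNNNGC, the core of the antioxidant response element, was in 10.9% of all windows and in those of 3 members. A match is a description of the letters, not of binding.

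Levels per kilobase of exon spanned the 32 genes widely in DMSO. The length was that of all annotated exons of a gene joined, for example 12086 bases for HADH and 1617 for ECHS1. The transcripts present may be shorter than this, so the order of genes on this scale is approximate. FABP1, which carries fatty acids through the hepatocyte cytosol, was highest at 678 ± 249 CPM per kilobase. ECHS1, the mitochondrial short-chain enoyl-CoA hydratase, followed at 115 ± 10.4, and HADHA, the alpha subunit of the trifunctional protein of long-chain oxidation, at 83.4 ± 4.90. On this scale these 3 did not overlap each other or the genes below them. From ACOT2, a mitochondrial acyl-CoA thioesterase, at 44.7 ± 8.25, down to ACAA1, the peroxisomal thiolase, at 29.1 ± 3.58, each gene overlapped the next, so their order is not resolved. At the low end were PPARGC1A, which encodes PGC-1 alpha, at 1.51 ± 0.27 and ACAD11, an acyl-CoA dehydrogenase for hydroxylated chains, at 0.671 ± 0.157.

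FABP1 alone made up 13.6 to 57.2% of the summed CPM of the 32 genes in a library. The sum without it, in CPM, was 3068 ± 150 in DMSO, 3140 ± 108 in water, 2894 ± 100 in CdCl2 and 3221 ± 96.3 in PFOS. It was 3841 ± 321 in TCDD, 3285 ± 299 in BPA and 3755 ± 552 in TBTCl. Each TCDD library, at 3564 to 4300, lay above each DMSO library, at 2930 to 3223, as did each TBTCl library, at 3382 to 4575, whereas BPA overlapped DMSO. These sums still hold ETFB, whose values are given below. With ETFB also left out, the TCDD libraries overlapped those of DMSO, so their separation rests on that gene. The TBTCl libraries stayed above DMSO without it. In bulk RNA, fewer cells expressing a gene and less of its RNA per cell cannot be told apart.

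**Figure D1:**
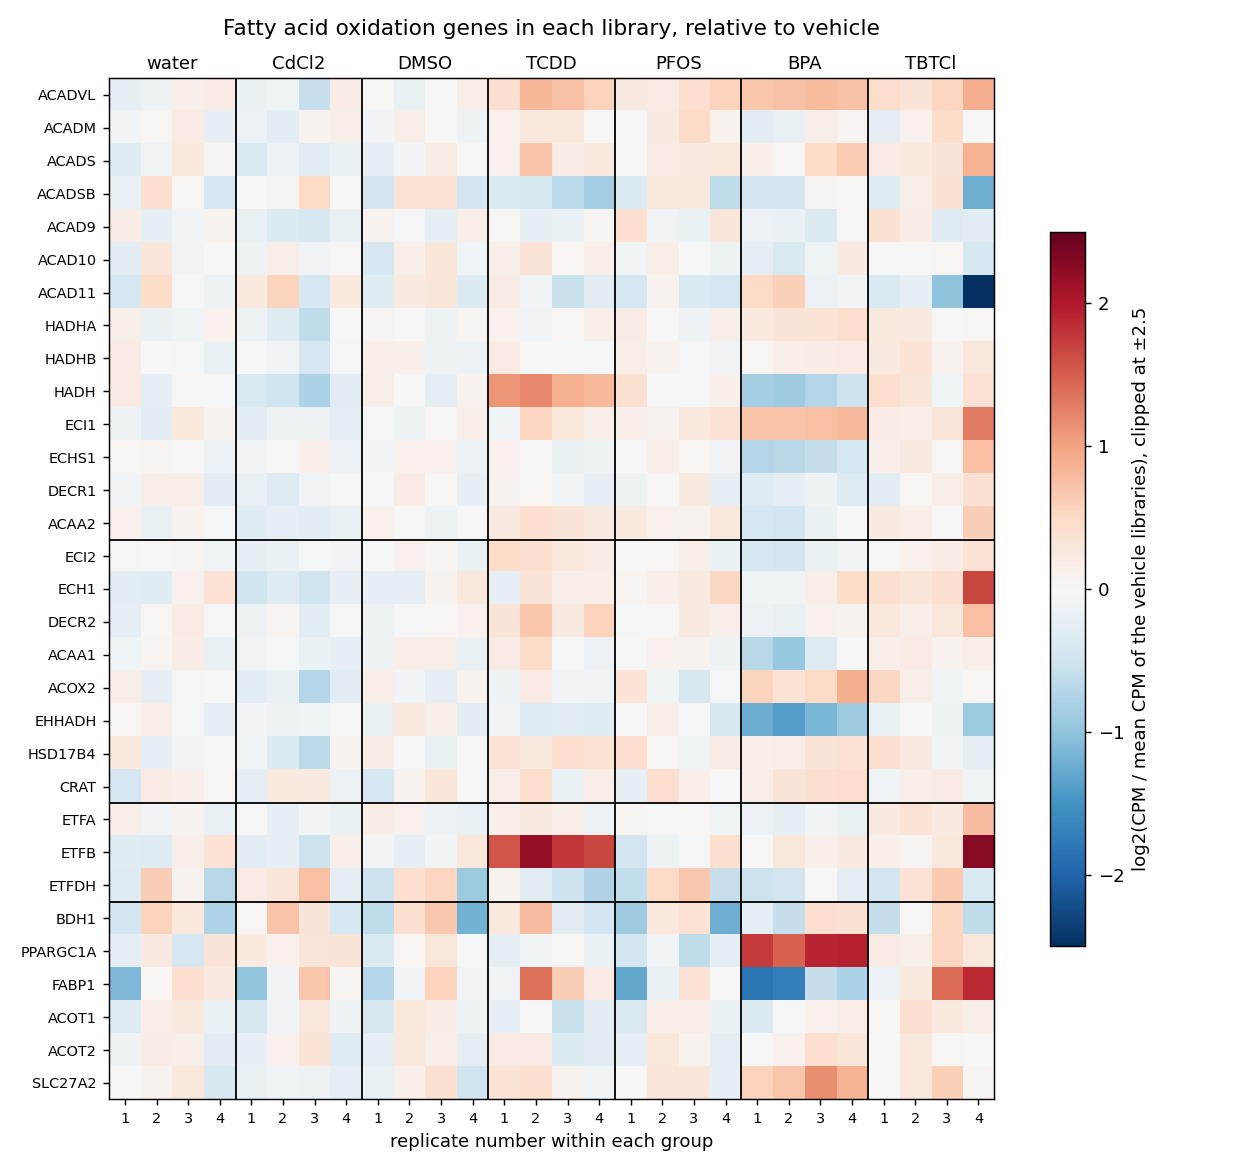
Level of each tested fatty acid oxidation gene (rows) in each of the 28 libraries (columns, 4 per group), as log2 of CPM over the mean CPM of the 4 libraries of its vehicle. HADH and ETFB are raised in all 4 TCDD libraries, PPARGC1A in all 4 BPA libraries, and the last TBTCl library stands apart in ETFB (932 CPM) and ACAD11 (0.0696 CPM).

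In TCDD 5 of the 31 genes rose and none fell. Against DMSO, 9.25% of all tested genes were called, 6.45% higher and 2.8% lower. The count of 5 fell to 3 without DMSO replicate 1, DMSO replicate 2 or TCDD replicate 2 and with no filter on low counts, so how far it stands above the background is not settled. The median log2 fold change of the 31 was 0.14, against -0.01 over all tested genes, and 20 of 31 were positive. The 5 were ETFB, HADH and ACADVL, which act on the mitochondrial route, and DECR2 and ECI2, auxiliary enzymes for unsaturated chains. In 7 of the 31 every TCDD library was above every DMSO library, a separation upward that 9.38% of all tested genes showed, and in 0 below, which 5.95% showed; the other two were ACAA2 and HSD17B4, which were not called. Hepatocyte markers had a median log2 fold change of -0.30, with 1 of 8 positive and none called, and their summed level was 35196 to 52269 CPM in TCDD against 38970 to 71915 CPM in DMSO. The summed markers of other cells, mostly KRT19, were 408 to 505 against 528 to 628 CPM, without overlap, and none of the 5 tested was called. Their part in the results was not tested.

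ETFB encodes the beta subunit of electron transfer flavoprotein, which takes electrons from the acyl-CoA dehydrogenases (chr19:51345169-51366418, minus strand, GRCh38). It was at 185, 168, 183 and 236 CPM in the DMSO libraries and at 576, 877, 667 and 617 CPM in the TCDD libraries. All 4 TCDD libraries were thus far above all 4 DMSO libraries. The log2 fold change was 1.83 ± 0.34 (3.54-fold, edgeR adjusted p = 0.000408). Neither of its partners was called. ETFA, the alpha subunit, had a log2 fold change of 0.10. ETFDH, the oxidoreductase that passes the electrons to ubiquinone, had -0.33 ± 0.34, a spread that leaves its direction open.

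HADH encodes the mitochondrial short-chain 3-hydroxyacyl-CoA dehydrogenase (chr4:107989714-108035175, plus strand). DMSO libraries had 54.6, 49.2, 41.4 and 52.2 CPM and TCDD libraries 106, 114, 91.8 and 86.1 CPM. The lowest TCDD library was well above the highest DMSO library. The level rose 2.01-fold (log2 1.01 ± 0.14, edgeR adjusted p = 7.22e-06), the smallest p of the 31 genes in this comparison.

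ACADVL encodes the very long-chain acyl-CoA dehydrogenase of the inner membrane (chr17:7217125-7225273, plus strand). It was at 217, 188, 212 and 237 CPM in DMSO and at 280, 380, 352 and 318 CPM in TCDD, without overlap. The log2 fold change was 0.64 ± 0.14 (1.56-fold, edgeR adjusted p = 0.00328). The other acyl-CoA dehydrogenases of straight chains were not called: ACADM, for medium chains, had 0.17 and ACADS, for short chains, 0.34 ± 0.16. ACADSB, for short branched chains, whose window holds TNGCGTG, had the lowest value of the 31 at -0.55 ± 0.27 (adjusted p = 0.249), and its groups overlapped.

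DECR2, the peroxisomal 2,4-dienoyl-CoA reductase, was at 23.1, 24.6, 26.3 and 27.3 CPM in DMSO and at 31.7, 40.6, 29.5 and 37.5 CPM in TCDD. All TCDD libraries were above all DMSO libraries, with a log2 fold change of 0.46 ± 0.13 (edgeR adjusted p = 0.0228). ECI2, an enoyl-CoA isomerase found in both organelles, was at 145, 158, 154 and 130 CPM in DMSO and at 203, 195, 175 and 168 CPM in TCDD, again without overlap, with 0.33 ± 0.11 (adjusted p = 0.0466). The call of DECR2 was lost without DMSO replicate 1 (adjusted p = 0.0812), DMSO replicate 2 (0.0746), TCDD replicate 2 (0.12) or TCDD replicate 4 (0.0773), and with no filter on low counts (0.117). The call of ECI2 was lost when any 1 library other than TCDD replicate 4 was left out (adjusted p 0.0592 to 0.15), under both other scalings (0.0516 and 0.0581), with no filter (0.328) and with only the 8 libraries compared (0.0961).

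**Figure D2:**
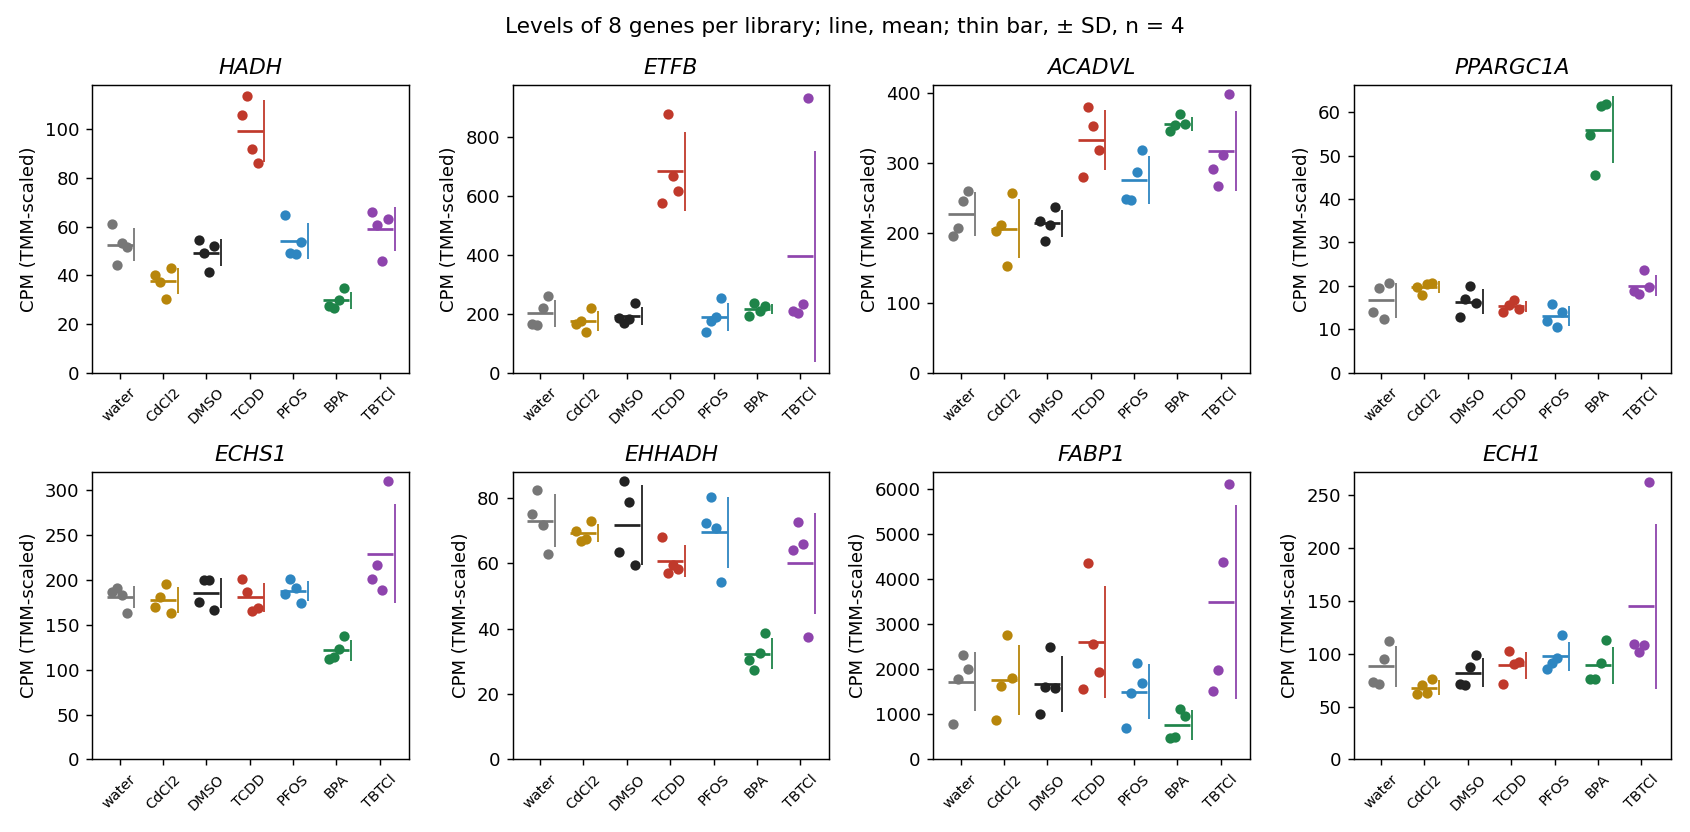
CPM of 8 genes in each library (points), with the group mean (line) and ± SD (thin bar, n = 4). HADH and ETFB are above DMSO in all 4 TCDD libraries, PPARGC1A in all 4 BPA libraries, and ETFB and ECH1 in TBTCl each show 1 library, at 932 and 262 CPM, apart from the other three.

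The rises of ETFB and HADH had company in their neighbourhoods, which were examined after these values were seen. Of 9 tested genes within 50 kb of ETFB, 7 were called higher in TCDD against the 6.45% of all genes, and none lower. LIM2, which encodes a membrane protein of the eye lens and lies 13490 bases upstream of ETFB, went from 0.274, 0.366, 0.445 and 0.768 CPM in DMSO to 80.5, 165, 116 and 109 CPM in TCDD. That is 243-fold (log2 7.92 ± 0.59, edgeR adjusted p = 3.12e-10). No library outside TCDD had more than 1.32 CPM of LIM2. CLDND2, 679 bases from ETFB, rose 2.94-fold (adjusted p = 0.000554) and VSIG10L, 3044 bases away on the other side, 2.41-fold (adjusted p = 7.01e-06).

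AC008750.4, an antisense RNA that overlaps ETFB, rose 2.93-fold (edgeR adjusted p = 0.0207), from 11.8 ± 2.48 to 34.4 ± 16.1 CPM. AC008750.8, a gene annotated as protein-coding, overlaps ETFB on the same strand. Whether reads were counted by strand is not known here, so reads of ETFB and of this antisense gene may not be told apart, although its level was far under the 684 ± 134 CPM of ETFB. Also higher were C19orf84 (9.14-fold), AC008750.1 (8.34-fold) and AC008750.2 (10.7-fold), all at or under 1.15 CPM in TCDD. IGLON5 and the pseudogene NIFKP6 were not called.

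Near HADH, 2 of 4 tested genes were called higher. AC096564.1, an antisense RNA 10914 bases before HADH on the opposite strand, rose 9.19-fold, from 1.56 ± 0.638 to 14.4 ± 4.40 CPM (edgeR adjusted p = 7.00e-08), and AC096564.2 rose 8.46-fold to 0.365 CPM. CYP2U1 and LEF1 were not called. Near ACADVL 1 of 8 genes (GABARAP, 1.31-fold), near DECR2 1 of 5 (RAB11FIP3, 1.38-fold) and near ECI2 0 of 2 were called higher, and none lower.

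**Figure D3:**
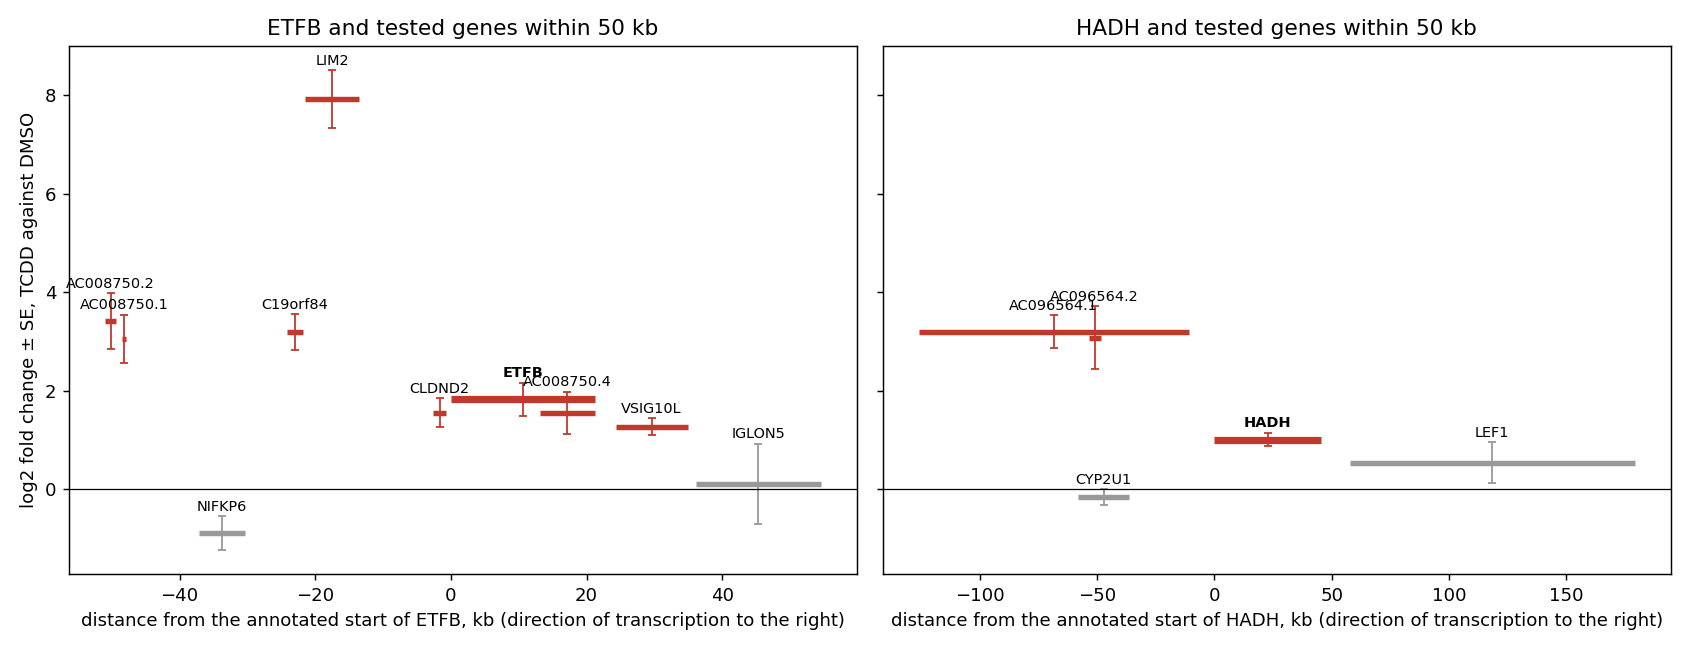
Log2 fold change ± SE in TCDD against DMSO (vertical axis) of ETFB, HADH and every tested gene within 50 kb, drawn over the span of each gene as distance in kb from the annotated start of ETFB or HADH; red bars passed the test. LIM2, at 7.92, is the highest, and 7 of 9 neighbours of ETFB and 2 of 4 of HADH passed.

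In BPA 12 of the 31 genes changed, 6 higher and 6 lower. That is close to the background, since 35% of all tested genes were called (17.3% higher, 17.6% lower), and the median of the 31, -0.02, equalled that of all genes. With upper-quartile factors or library size alone the all-gene median shifted by -0.13 and -0.12, calls over all genes went from 3268 higher of 6588 to 2239 of 6584 and 2169 of 6490, and the members to 5 higher and 8 lower under each. The members thus rose and fell side by side: PPARGC1A, SLC27A2, ECI1, ACADVL, ACOX2 and HADHA rose, and EHHADH, FABP1, HADH, ECHS1, ACAA1 and ECI2 fell. Every BPA library was above every DMSO library in 6 of the 31 genes and below in 3, separations that 20.1% and 17.1% of all genes showed. In these cells 3 of 8 hepatocyte markers were also lower (AFP, TF and FGB, log2 fold changes -1.33 to -0.99), and summed hepatocyte markers were 26028 to 41644 CPM in BPA against 38970 to 71915 CPM in DMSO; the summed markers of other cells, mostly KRT19, were 257 to 349 against 528 to 628 CPM. Their part in the results was not tested.

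PPARGC1A, whose product PGC-1 alpha coactivates PPAR alpha and other nuclear receptors, was at 12.7, 16.9, 19.9 and 16.0 CPM in DMSO and at 54.8, 45.5, 61.5 and 62.0 CPM in BPA. The lowest BPA library was far above the highest DMSO library. The rise was 3.41-fold (log2 1.77 ± 0.16, edgeR adjusted p = 1.03e-08), the largest among the 31 genes in BPA. No library of the other 6 groups was above 23.6 CPM.

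Of the genes that rose less, SLC27A2, which imports and activates very long chains, was at 25.8, 31.6, 37.7 and 20.6 CPM in DMSO and at 43.1, 46.9, 64.9 and 52.7 CPM in BPA, without overlap (log2 0.84 ± 0.18, edgeR adjusted p = 0.000654). ECI1, the mitochondrial enoyl-CoA isomerase of unsaturated chains, was at 84.0, 78.3, 87.2 and 94.0 CPM in DMSO and at 140, 141, 145 and 152 CPM in BPA, also apart (0.75 ± 0.18, adjusted p = 0.00192). ACADVL was at 346, 354, 370 and 355 CPM in BPA, above the 188 to 237 CPM of DMSO (0.74 ± 0.14, adjusted p = 0.000307). These 3 genes act at entry, at unsaturated bonds and at the first step of long chains. ACOX2, the peroxisomal oxidase of branched chains and bile acid precursors, was at 28.7 to 36.9 CPM in DMSO and at 41.9 to 61.9 CPM in BPA (0.59 ± 0.16, adjusted p = 0.00502). HADHA was at 337 to 382 CPM in DMSO and at 433 to 493 CPM in BPA (0.34 ± 0.12, adjusted p = 0.0266), a call lost under both other scalings (adjusted p 0.142 and 0.217), with no filter (0.167) and without DMSO replicates 2 or 3 or BPA replicates 2, 3 or 4 (0.0516 to 0.0768). Its partner subunit HADHB, whose gene overlaps HADHA head to head, had 0.15 and was not called.

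Of the genes that fell, EHHADH encodes the bifunctional hydratase and dehydrogenase of the peroxisome. It was at 63.4, 85.1, 78.8 and 59.4 CPM in DMSO and at 30.5, 27.4, 32.4 and 38.7 CPM in BPA. The groups were far apart, and the log2 fold change was -1.15 ± 0.16 (edgeR adjusted p = 5.61e-06). HADH was at 27.6, 26.6, 29.9 and 34.7 CPM in BPA, below the 41.4 to 54.6 CPM of DMSO (-0.73 ± 0.14, adjusted p = 0.000227). ECHS1 was at 176, 200, 199 and 167 CPM in DMSO and at 112, 114, 123 and 137 CPM in BPA, without overlap (-0.61 ± 0.12, adjusted p = 0.000423). HADH and ECHS1 catalyse neighbouring steps for short chains. All 4 BPA libraries were the lowest of the 28 in ECHS1, whereas in HADH 1 CdCl2 library, at 30.4 CPM, lay among them.

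FABP1 was at 1007, 1605, 2496 and 1590 CPM in DMSO and at 472, 508, 1112 and 968 CPM in BPA. The highest BPA library passed the lowest DMSO library. The log2 fold change of -1.13 ± 0.45 stood just within the threshold (edgeR adjusted p = 0.0499), and the call was lost without DMSO replicates 2, 3 or 4 or BPA replicates 1, 2 or 4 (adjusted p 0.0543 to 0.163). ACAA1, at 189, 229, 228 and 181 CPM in DMSO and 128, 107, 164 and 208 CPM in BPA, overlapped (-0.45 ± 0.15, adjusted p = 0.0250) and lost its call without DMSO replicates 2 or 3 or BPA replicates 1 or 2 (0.0678 to 0.109) and with only the 8 libraries compared (0.0641). ECI2, at 109, 105, 130 and 140 CPM in BPA, overlapped the 130 to 158 CPM of DMSO (-0.28 ± 0.11, adjusted p = 0.0433) and lost its call without DMSO replicates 1, 2 or 3 or BPA replicates 1 or 2 (0.0614 to 0.143), with no filter (0.154) and with only the 8 libraries compared (0.0511). Without DMSO replicates 2 or 3, or BPA replicates 1 or 2, 3 of the members were called lower in place of 6.

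The other 19 genes were not called in BPA, with log2 fold changes from -0.30 (ETFDH) to 0.34 (ACADS). With the replicate number as a block, ACADS (0.34, adjusted p = 0.0417) and CRAT, the carnitine acetyltransferase (0.35, adjusted p = 0.0212), were called higher. With upper-quartile factors or library size alone DECR1, the mitochondrial dienoyl-CoA reductase, and ACAA2, the mitochondrial thiolase, were called lower, DECR1 at -0.38 under each and ACAA2 at -0.38 and -0.39. ETFA and ETFB, at -0.15 and 0.16, were among the 19.

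**Figure D4:**
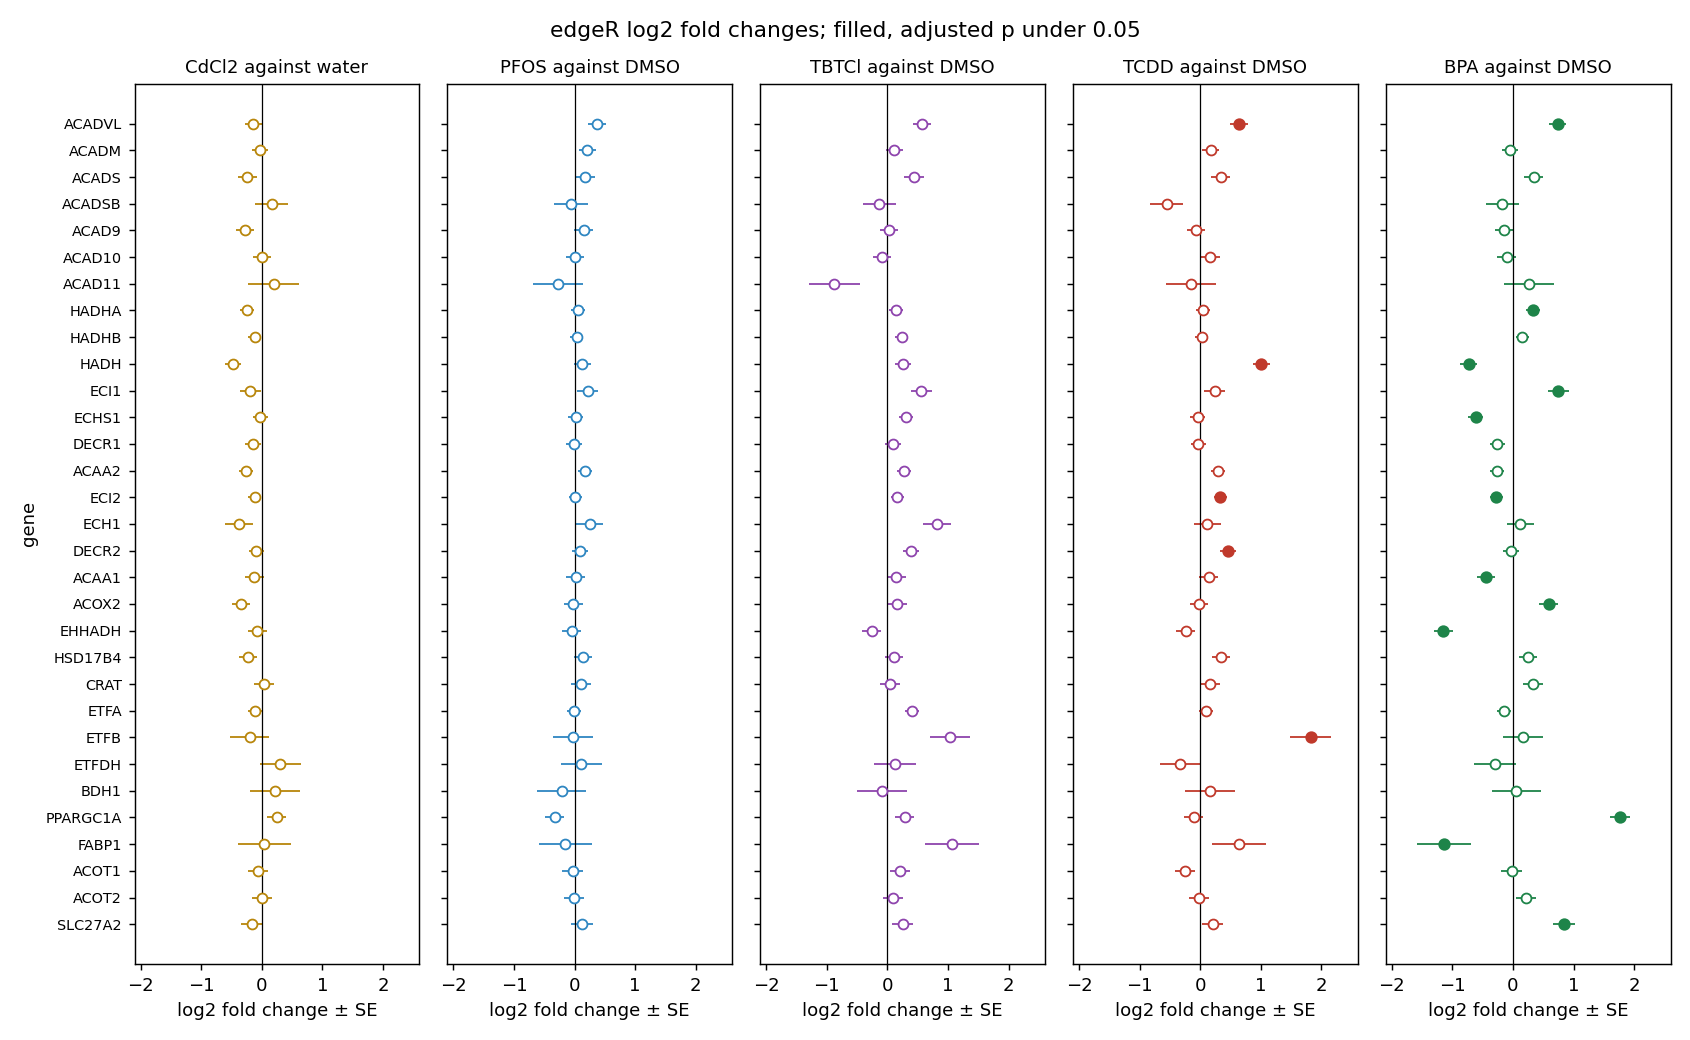
EdgeR log2 fold change ± SE of the 31 tested genes (rows) for each compound against its vehicle (panels); filled points passed the test. TCDD has 5 filled points, all to the right of 0, BPA has 6 on each side, and the panels of CdCl2, PFOS and TBTCl have none.

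TCDD and BPA share their DMSO controls, so the 2 compounds were set against each other directly. Over all genes 38.3% were called in this contrast, 17.8% higher and 20.4% lower, and of the members 4 were higher and 9 lower in BPA, 13 of 31. HADH moved in opposite directions from DMSO and had the largest difference by p, with BPA at 26.6 to 34.7 CPM and TCDD at 86.1 to 114 CPM (log2 -1.74 ± 0.14, edgeR adjusted p = 7.02e-10). ECI2 also moved in opposite directions (-0.61 ± 0.11, adjusted p = 6.86e-05). ETFB, at 194 to 236 CPM in BPA, was lower by -1.66 ± 0.34 (adjusted p = 0.000348). FABP1 was lower in BPA by -1.77 ± 0.45 (adjusted p = 0.00317), the 472 to 1112 CPM of BPA lying below the 1566 to 4370 CPM of TCDD. PPARGC1A (1.88 ± 0.16, adjusted p = 1.94e-09), SLC27A2, ACOX2 and ECI1 were higher in BPA, the call of ECI1 being lost under upper-quartile factors (adjusted p = 0.0981) and without TCDD replicate 1 (0.0755). ACADVL rose from DMSO with both compounds, and BPA differed from TCDD by 0.10 ± 0.14 (adjusted p = 0.609).

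In TBTCl none of the 31 genes was called, while 0.143% of all tested genes (27) were called, 0.106% higher and 0.0371% lower. Unadjusted p was under 0.05 for 11 of the 31 and for 2937 of all genes, 26 of 31 had a positive log2 fold change, and the median was 0.17 against 0.01 over all genes. The largest values were those of FABP1 (1.06 ± 0.44, edgeR adjusted p = 0.253), ETFB (1.03 ± 0.33, adjusted p = 0.157) and ECH1, a dienoyl-CoA isomerase of mitochondria and peroxisomes (0.82 ± 0.23, adjusted p = 0.117). In 6 genes (ACADVL, ACADS, ECI1, ECH1, DECR2 and ETFA) every TBTCl library was above every DMSO library, which 2.26% of all genes showed. Of the 8 hepatocyte markers 6 also had a positive log2 fold change, with a median of 0.30, and none was called. In 3 of the 8 every TBTCl library was above every DMSO library. The part of these markers in the results was not tested. With the replicate number as a block, ACADVL (0.56, adjusted p = 0.0242) and ECH1 (0.76, adjusted p = 0.0164) were called higher, with 179 genes in all. With no filter, ECH1 (0.75, adjusted p = 0.0450) and ETFB (0.95, adjusted p = 0.0491) were called. DESeq2 called 3 members higher, ACADVL, ECH1 and ETFA, and 252 genes in all.

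TBTCl replicate 4 stood apart from its group. ETFB was at 211, 203, 234 and 932 CPM in TBTCl replicates 1 to 4, and ECH1 at 109, 101, 108 and 262 CPM. ECI1 was at 97.2, 96.2, 106 and 208 CPM. FABP1, at 1515, 1987, 4384 and 6108 CPM, was high in replicate 3 as well, so replicate 4 did not stand alone in it. ACAD11 went the other way, at 2.94, 3.30, 1.89 and 0.0696 CPM, the last under the 3-count floor of that library.

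Genes with a mean of at least 5 CPM were split by their bases of annotated exon. In this library genes under 2500 bases were higher, relative to the other libraries of the group, than genes over 8000 bases. The medians differed by 1.10 on the log2 scale, against -0.21 to 0.32 in the libraries of the other groups. In TBTCl replicates 1 to 3, whose comparison included replicate 4, the difference was -0.45 to -0.24. The TMM factor of replicate 4, 0.861, was also the lowest. The part of exon or transcript length in the values above was not tested. Without this library the log2 fold changes of TBTCl against DMSO were 0.16 for ETFB, 0.37 for ECH1, 0.65 for FABP1 and 0.44 for ACADVL (adjusted p 0.368 to 0.988), and again none was called.

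Set against TBTCl, BPA had 4 members higher and 12 lower, against 16.7% and 18.1% of all genes (34.8% in all). Of the 8 hepatocyte markers 6 were also lower, with a median log2 fold change of -1.14 over the 8, as were 2 of 5 tested markers of other cells. The part of these markers in the result was not tested. FABP1 (-2.19 ± 0.46, edgeR adjusted p = 0.000687), HADH (-0.99 ± 0.14, adjusted p = 8.10e-06), ECHS1 (-0.92 ± 0.12, adjusted p = 4.14e-06) and ETFA (-0.55 ± 0.12, adjusted p = 0.000784) were lower in BPA without overlap. With the replicate number as a block CRAT was also called higher in BPA (0.30, adjusted p = 0.0489). ETFB was called at -0.87 ± 0.33 (adjusted p = 0.0416), but without TBTCl replicate 4 its difference was 0.00 (adjusted p = 0.999) and 8 members were lower. Its call was also lost when any 1 BPA library was left out (0.0655 to 0.0936) and with only the 8 libraries compared (0.185). TCDD against TBTCl called HADH higher (0.76 ± 0.14, adjusted p = 0.000332) and ECH1 lower (-0.70 ± 0.23, adjusted p = 0.0395), against 7.26% and 5.58% of all genes (12.8% in all). Without TBTCl replicate 4, ECH1 was no longer called (-0.27, adjusted p = 0.331) and ETFB was higher in TCDD (1.65, adjusted p = 1.92e-06). The call of ECH1 was also lost without TCDD replicates 1, 3 or 4 (0.0676 to 0.103) and with only the 8 libraries compared (0.233).

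In PFOS and CdCl2 none of the 31 genes was called. In PFOS 0.0159% of all genes (3) were called, and 1043 had an unadjusted p under 0.05. Among the members 2 did, ACADVL (0.37 ± 0.14, edgeR adjusted p = 0.526), with 246 to 319 CPM above the 188 to 237 CPM of DMSO, and PPARGC1A (-0.33 ± 0.16, adjusted p = 0.886). In CdCl2 against water 0.0212% of all genes (4) were called, 940 had an unadjusted p under 0.05, and 4 members did. HADH, at 60.9, 44.3, 53.5 and 51.8 CPM in water and 40.1, 37.4, 30.4 and 43.1 CPM in CdCl2, did not overlap but did not pass (-0.48 ± 0.14, adjusted p = 0.688). The medians were 0.02 in PFOS and -0.12 in CdCl2, against 0.02 and 0.00 over all genes, and DESeq2 also called no member in either. DMSO against water called 0% of all genes and no member, with log2 fold changes of the members from -0.19 to 0.32; 431 genes and 0 members had an unadjusted p under 0.05.

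Fatty acids reach the matrix after activation by acyl-CoA synthetases and transfer by the carnitine shuttle, a group of 11 related genes of which 10 were tested. CPT1A, the carnitine palmitoyltransferase that limits entry of long chains, was at 27.8, 29.3, 30.7 and 28.5 CPM in DMSO, at 141, 132, 122 and 125 CPM in TCDD, at 119, 148, 130 and 145 CPM in BPA and at 75.9, 79.0, 91.5 and 98.6 CPM in TBTCl. All 3 groups were clear of DMSO. The log2 fold changes were 2.16 ± 0.17 in TCDD, 2.22 ± 0.17 in BPA and 1.57 ± 0.17 in TBTCl (edgeR adjusted p = 9.78e-10, 1.11e-09 and 2.29e-05). TBTCl was lower than BPA by 0.65 ± 0.17 (adjusted p = 0.00381) and than TCDD by 0.59 ± 0.17 (0.0175), whereas BPA and TCDD differed by 0.06 ± 0.17 (0.811). In CdCl2 and PFOS it was not called (0.57 ± 0.17 and 0.55 ± 0.17, adjusted p = 0.711 and 0.234).

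In the rest of that group, 2 genes were higher and 3 lower in TCDD, and 3 higher and 2 lower in BPA, CPT1A included, against 6.45% and 2.8% of all genes in TCDD and 17.3% and 17.6% in BPA. ACSL1, ACSL3 and ACSL4, synthetases of long chains, fell in TCDD (-0.80 ± 0.20, -0.97 ± 0.26 and -1.27 ± 0.19, edgeR adjusted p = 0.00951, 0.0144 and 3.85e-05), and ACSL1 and ACSL3 rose in BPA (0.69 ± 0.20 and 0.85 ± 0.26). ACSL6 went from 2.72 to 3.40 CPM in DMSO to 7.90 to 10.4 CPM in TCDD (1.59 ± 0.24) and 0.115 to 0.430 CPM in BPA (-3.32 ± 0.29, adjusted p = 4.99e-09). In TBTCl CPT1A was the only gene of the group called.

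Of 13 other genes of peroxisomal oxidation, 11 were tested. TCDD called 1 higher (6.45% of all genes), BPA 2 higher (17.3%) and 4 lower (17.6%), and the other compounds none. Among those lower in BPA were CROT, the carnitine octanoyltransferase (-1.31 ± 0.30, edgeR adjusted p = 0.00160), AMACR, the racemase of branched chains (-1.23 ± 0.43, adjusted p = 0.0278), and ABCD3, a peroxisomal importer (-0.69 ± 0.16, adjusted p = 0.00152).

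Downstream of oxidation, 9 genes of ketone body and propionyl-CoA metabolism were tested. BPA called 4 lower and none higher (17.6% and 17.3% of all genes), TCDD 1 higher and none lower (6.45% and 2.8%), and the other compounds none. Of those lower in BPA, 3 are described. BDH2, a cytosolic dehydrogenase, was at 11.1, 10.5, 9.98 and 8.08 CPM in DMSO and 3.46, 3.24, 4.83 and 4.56 CPM in BPA, clear of each other (-1.30 ± 0.17, edgeR adjusted p = 3.18e-06). MCEE, the methylmalonyl-CoA epimerase (-1.12 ± 0.23, adjusted p = 0.000599), and MMUT, the mutase after it (-0.61 ± 0.18, adjusted p = 0.0113), were also lower. Among the members, BDH1, the mitochondrial hydroxybutyrate dehydrogenase, was called in none of the comparisons (0.06 in BPA and 0.16 in TCDD).

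Of 15 regulators and further PPAR alpha targets, TCDD called 2 higher and 1 lower, against 6.45% and 2.8% of all genes. BPA called 4 higher and 3 lower, against 17.3% and 17.6% of all genes. PPARA itself was not called: 58.6 ± 14.0 CPM in DMSO, 78.7 ± 11.4 in TCDD (0.42 ± 0.20, edgeR adjusted p = 0.215) and 79.3 ± 13.6 in BPA (0.43 ± 0.20, adjusted p = 0.0914). RXRA, the partner receptor of PPAR alpha, rose in TCDD (1.14 ± 0.13, adjusted p = 5.55e-07), as did CREB3L3 (1.09 ± 0.35, adjusted p = 0.0463). BPA raised PPARD (1.12 ± 0.14), PPARGC1B (1.20 ± 0.35), ESRRA (1.01 ± 0.17) and FGF21 (2.20 ± 0.46), a secreted fasting factor at 0.0305 to 0.188 CPM in DMSO, in part under the 3-count floor, and 0.506 to 0.762 CPM in BPA. The pyruvate dehydrogenase kinases PDK1 (-1.44 ± 0.49), PDK3 (-1.06 ± 0.20) and PDK2 (-0.56 ± 0.18) were lower in BPA.

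Some members varied with the replicate number. ETFDH was at 16.5, 31.6, 34.4 and 12.4 CPM in DMSO replicates 1 to 4, BDH1 at 24.4, 50.0, 60.1 and 16.7 CPM and ACADSB at 173, 308, 308 and 172 CPM. Replicates 2 and 3 were thus close to each other and above replicates 1 and 4. In 8 of the 31 genes (ACADM, ACADSB, CRAT, ETFDH, BDH1, ACOT1, ACOT2 and SLC27A2) both of these libraries were above the other two in at least 5 of the 7 groups, 25.8% of the members against 5.86% of all tested genes. The reverse held for ACAD9 and HADHA, 6.45% against 7.14%. The pattern was picked after its values were seen and was not tested. ACOT1 and ACOT2 are near-identical neighbours on chromosome 14, so reads may be split between them and their separate levels are uncertain.

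**Figure D5:**
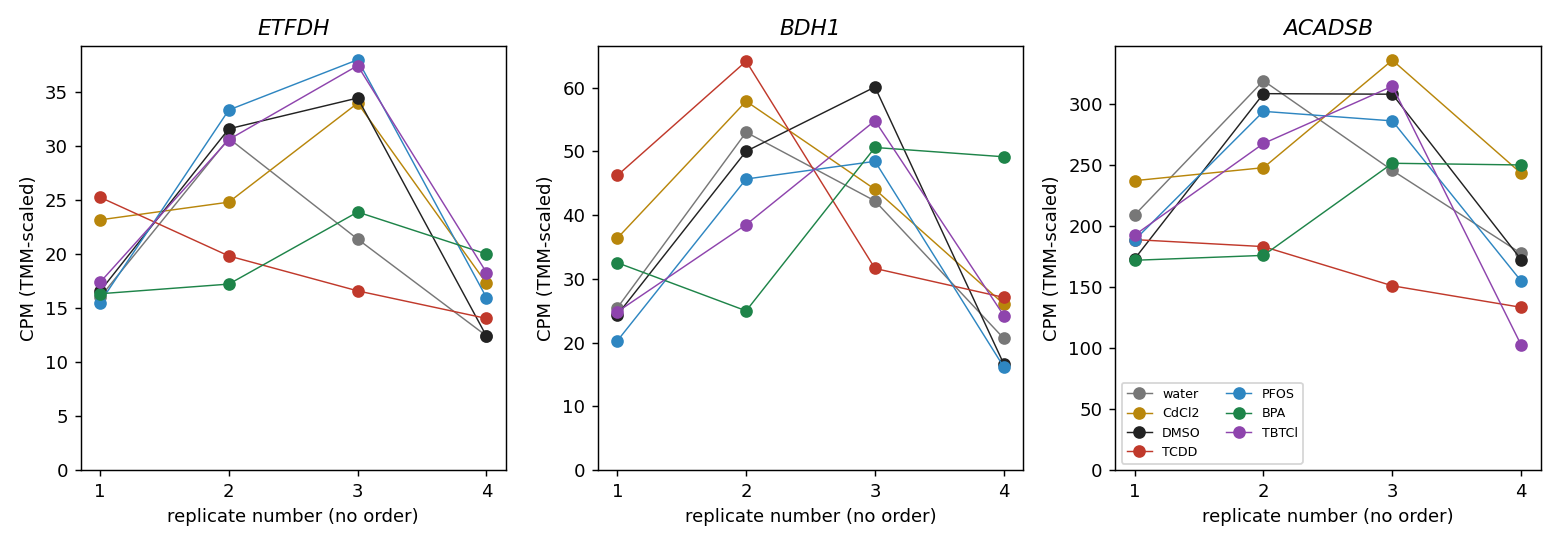
CPM of ETFDH, BDH1 and ACADSB by replicate number (horizontal axis, no order implied), with a line joining the 4 libraries of each group. In DMSO replicates 2 and 3 of ETFDH were at 31.6 and 34.4 CPM and replicates 1 and 4 at 16.5 and 12.4 CPM.

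By role, the 14 mitochondrial enzymes held 2 of the 5 genes higher in TCDD and 5 of the 12 called in BPA (3 higher, 2 lower). Over all tested genes 6.45% were higher in TCDD and 35% were called in BPA, so 5 of 14 in BPA is close to the background. The 8 peroxisomal enzymes and auxiliary isomerases held 2 higher in TCDD, and 1 higher and 3 lower in BPA. Of the 3 electron transfer genes 1 was higher in TCDD and none was called in BPA. Of the 6 tested regulators, thioesterases, carriers and ketone body genes none was called in TCDD, and 2 were higher and 1 lower in BPA. In the annotation, 13 members overlap a protein-coding gene on the opposite strand and 8 on the same strand, where reads may be shared, while HADH and FABP1 overlap none.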

How the data were processed

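Poly(A)-selected RNA of 28 HepG2 libraries was measured. The authors deposited whole-number read counts per gene, and fastp, STAR, HTSeq, DESeq2 and GRCh38 are named per the submitters' processing notes; of the tool versions, annotation release and strand setting nothing is given in the sources used here. Of 63140 gene rows the last was left out, because the file ends there without a line break.

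The counts were scaled by TMM and tested with edgeR 4.0.16 (quasi-likelihood, R 4.3.3) in 1 fit of all 28 libraries with 7 group means. Genes passed filterByExpr at a minimum count of 10, and p-values were adjusted by Benjamini-Hochberg over all genes tested. The SE was taken as |log2 fold change| over the root of the F statistic. Libraries within a group differed by more than counting noise (chi-square per gene 24.8 to 334). The scripts were tested on simulated data. GENCODE 29 gave coordinates and exon lengths, and RefSeq the promoters.

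The members and the lists of related genes were chosen with earlier results of these data known. Per-library values are given for members called in a vehicle comparison, at most 8 per comparison by size of change. From each related list, called genes with the largest changes are named, at most 4 per comparison, with CPT1A and PPARA always given; some genes of these lists are not reported here, so those named are not always the largest. Other uncalled members, ECH1 and ACAD11 in TBTCl, ACSL1 in TCDD, ESRRA, PDK2 and PDK3 in BPA, and all neighbouring genes were added after their values were seen.

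Alternatives were DESeq2 1.42.0, upper-quartile factors, library size alone, no filter, only the 8 libraries compared, leaving out each library, and the replicate number as a block. Deviations of libraries with the same number from their group means correlated by more than 0.1 in every pair for CdCl2 with water (0.123 to 0.54), PFOS (0.425 to 0.593), BPA (0.173 to 0.269) and TBTCl (0.249 to 0.528) with DMSO, DMSO with water (0.181 to 0.627) and BPA with TBTCl (0.146 to 0.324). They did not for TCDD with DMSO (-0.212 to 0.439), BPA (-0.245 to 0.166) or TBTCl (-0.353 to 0.282). The pairing comes from the replicate numbers in the sample titles.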

Additional observations from a re-analysis of the deposited data

Results flagged for a closer look

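In 10 of 217 combinations of a member and a group, 1 library lay far from the other three of its group, relative to the range of the group; chance gives about 1 in 20 groups. Of these, 4 high values were in a single library, TBTCl replicate 4: ETFB at 932 CPM (others 203 to 234), ECH1 at 262 CPM (101 to 109), ECI1 at 208 CPM (96.2 to 106) and ACADS at 62.0 CPM (39.1 to 41.9). ACAD10 was low in that library, at 13.7 CPM (18.3 to 19.1). ACOT2 was high in TBTCl replicate 2, at 130 CPM (107 to 108). In TCDD, ACOX2 was high in replicate 2, at 38.0 CPM (30.1 to 31.3), and HADHB in replicate 1, at 190 CPM (159 to 162). ACADSB was high in CdCl2 replicate 3, at 336 CPM (237 to 248), and ACAD11 in PFOS replicate 2, at 4.05 CPM (2.82 to 2.92).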

How the results depend on the processing

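Main counts are in parentheses. Members higher in TCDD than DMSO numbered 3 with no filter (5), and 3 to 4 when 1 library was left out, the lowest without DMSO replicate 1, DMSO replicate 2 or TCDD replicate 2. Members higher in TBTCl than DMSO (0) numbered 2 with no filter, 2 with the replicate block and 3 with DESeq2, and 0 to 2 leaving out 1 library. In BPA against DMSO, leaving out 1 library, 5 to 6 were higher (6) and 3 to 6 lower (6); over the other settings 5 to 8 were higher, with 8 under the block, and 4 to 8 lower, with 8 under both other scalings. In BPA against TBTCl 2 were higher (4) under upper-quartile factors, library size alone and the fit of 8 libraries. Leaving out 1 library, 2 to 4 were higher, with 2 without BPA replicate 1 or TBTCl replicate 3, and 8 to 12 lower (12), with 8 without TBTCl replicate 4 or BPA replicate 2. In BPA against TCDD, leaving out 1 library, 3 to 4 were higher (4) and 9 to 10 lower (9); over the other settings 3 to 5 were higher and 9 to 12 lower, with 12 under upper-quartile factors. In TCDD against TBTCl 2 were higher (1) with library size alone, no filter and the block, and 1 to 2 leaving out 1 library, with 2 without TBTCl replicate 4. The members lower there (1) were 2 with the block, 0 with 8 libraries and 3 with DESeq2, and 0 to 3 leaving out 1 library: 0 without TCDD replicates 3 or 4 or TBTCl replicate 4, 2 without TBTCl replicate 3, and 3 without TBTCl replicate 1. No member was called in CdCl2, PFOS or DMSO against its vehicle or water under any of these. No log2 fold change of a called member reversed.

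The block changed no other call beside those given with the results, apart from HADHA in BPA against TCDD (0.29, adjusted p = 0.0159) and ETFB (1.00, adjusted p = 0.00896) and ACOT1 (-0.44, adjusted p = 0.0126) in TCDD against TBTCl, where numbers do not pair the libraries. Over all genes the block called 179 in TBTCl (27), 84 in PFOS (3), 28 in CdCl2 (4) and 2722 in TCDD (1743). DESeq2 called 252, 127 and 15 in the first 3 of these and 1 in DMSO against water (0). No filter gave 111, 78 and 25. Library size alone gave 9 in TBTCl, and upper-quartile factors 23 in PFOS. The fit of 8 libraries called 1 in TBTCl, 0 in CdCl2, 3460 in BPA against TBTCl (6564) and 919 in TCDD against TBTCl (2420). The causes were not tested. Depth limits PDK4 and ACAD11 in TBTCl replicate 4, at or near the floor of 3 counts.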
